A study of Caenorhabditis elegans with 12 samples.

Results

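The protease genes described here are those whose symbol in the 3 deposited expression tables starts with *asp-*, *cpr-*, *cpl-*, *cpz-*, *nas-* or *pcp-*. They are 36 of the 12749 genes in the tables, with 12 *asp-*, 6 *cpr-*, 1 *cpl-*, 2 *cpz-*, 10 *nas-* and 5 *pcp-* genes, and all are protein-coding. RNA was sequenced from whole day 1 adult *Caenorhabditis elegans* of 4 groups, which were wild type (Bristol N2) and *mdt-15(tm2182)* mutants, each kept at 25 °C or at 15 °C on OP50 bacteria. Each group had 3 biological repeats, so 12 libraries were made. Mediator, to which the MDT-15 protein belongs, links transcription factors to RNA polymerase, and *mdt-15(tm2182)* is a reduction-of-function allele that the mutants carry in the whole body. Whole worms were used, so RNA of the gut, hypodermis, muscle, nerves, germ line and embryos was measured together.

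Proteases of these families cut proteins by different chemistry. The *asp-* genes encode aspartic proteases related to mammalian cathepsin D, and the *cpr-*, *cpl-* and *cpz-* genes encode cysteine proteases related to cathepsins B, L and Z. Such enzymes act in acidic compartments, which are the lysosomes of all cells and the gut of the worm, where they digest bacterial food. The *nas-* genes encode astacins, zinc metalloproteases that are made as inactive precursors and, in nematodes, take part in digestion, moulting, hatching and the shaping of the cuticle and other matrices. The *pcp-* genes encode serine proteases related to lysosomal prolyl carboxypeptidase, which removes residues next to a proline.

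The value available for each gene is the authors' average over their libraries of log2 cpm, read counts scaled to the total of each library, which is the same in the tables of different group pairs (largest difference 2.98e-04) and is therefore taken as 1 average over all 4 groups. It carries no spread, no value per library and no value per group, so read depths are not known. Differences between wild type and *mdt-15(-)*, or between 15 °C and 25 °C, were thus not analysed here. Fewer cells of a type and less RNA per cell cannot be told apart in whole worms. A gene that is active in 1 group alone would show a middle or low average. To set genes of different length side by side, log2 of the exon length in kb was subtracted, and "level" means this log2 cpm per kb throughout. Folds between genes are differences of these levels on the linear scale, and since no error can be given, no order of genes was tested. Over the 12712 genes with a length in the annotation, the level had a median of 2.47 and quartiles of 0.61 and 4.61.

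Many of the cathepsin-like genes were among the abundant mRNAs of the worm. Most of the listed astacin genes lay below the lower quartile of all genes. The median level was 6.36 for *asp-* and 7.99 for *cpr-* genes, the *cpz-* genes had 5.44 and 8.56, and *cpl-1* had 9.26. It was -0.21 for *nas-* and 0.77 for *pcp-* genes. Of the 36 genes, 21 (58.3%) lay above the median of all genes, and 12 (33.3%) lay in the top 10% of genes by level. All of these 12 were *asp-*, *cpr-*, *cpl-* or *cpz-* genes. At the other end, 9 genes (25.0%) lay below the lower quartile of all genes, of which 7 were *nas-* and 2 were *pcp-* genes. The members' share below the lower quartile equals that of all genes, which is 25.0% by definition of a quartile. Their share in the top 10% is above that of all genes. The median over the 36 genes was 3.39. Averages of log2 cpm raised to the linear scale are geometric means over the libraries, and cpm of single genes are given so below. On that scale, without length scaling, the 36 genes made up 0.666% of the summed average cpm while being 0.282% of the genes. The 5 highest held 60.4% of the members' sum.

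Among the aspartic proteases, *asp-1*, which encodes a protease of the intestine, had the highest average of all 36 genes. Its average was 10.20 log2 cpm (1175 cpm) and its level 9.95, at percentile 98.6 of all genes. The gene has a single exon (WBGene00000214, chromosome V, 19049562 to 19050752, minus strand of WBcel235). *asp-3* (WBGene00000216, chromosome X, 6791064 to 6792709) and *asp-4* (WBGene00000217, chromosome X, 13218985 to 13221462), lysosomal enzymes known for their part in necrotic death of neurons, had levels of 8.47 and 7.75. *asp-6* stood between them at 8.22. A step of 1.48 on the log2 scale, which is 2.79-fold, separated *asp-1* from *asp-3*, the next of its family.

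The middle of the family was formed by *asp-5* (7.55), *asp-2* (7.01), *asp-13* (5.70), *asp-10* (5.27) and *asp-12* (2.81). The gene listed as *asp-10* carries the symbol *hrg-7* in the annotation used for coordinates, which is the name of a secreted intestinal protein that takes part in heme signalling between tissues. The lowest listed aspartic protease genes were *asp-8* (2.10), *asp-14* (1.65) and *asp-17* (1.32), which lay below the median of all genes. *asp-8* was at percentile 45.1 and *asp-17* at 34.4. From *asp-1* to *asp-17* the family spanned 8.63 on the log2 scale. No listed aspartic protease gene lay below the lower quartile of all genes.

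All 9 cysteine protease genes lay above the median of all genes. *cpr-6* (WBGene00000786, chromosome X, 6607207 to 6609045) and *cpl-1* (WBGene00000776, chromosome V, 16592572 to 16595346), the latter a cathepsin L needed in embryos for the processing of yolk, had levels of 9.32 and 9.26. These averages differ by 0.07, and whether they differ beyond the spread of the libraries cannot be said from averages. *cpr-1*, a cathepsin B of the gut, had 8.83, *cpz-1*, a cathepsin Z known for its part in moulting, had 8.56, and *cpr-5* had 8.39. *cpr-4*, which encodes a cathepsin B that can be secreted, had 7.59.

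A gap separated these from the lower cathepsin genes. *cpz-2* had a level of 5.44, 8.70-fold below *cpz-1*. *cpr-8* and *cpr-3* had 3.28 and 3.27, which placed them 5077 and 5091 of the 12712 genes, and *cpr-6* was 66.5-fold higher than *cpr-3*. The *cpr-* family thus fell into 4 genes in the top 10% of all genes and a pair in the middle.

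The inhibitors of cysteine proteases were abundant as well. Of the 3 cystatin genes looked for, *cpi-1* and *cpi-2* were in the tables, with levels of 8.49 and 7.08. Both lay within the range of the cysteine protease genes (3.27 to 9.32). The third, *cpi-3*, was not listed.

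Among the listed astacins, *nas-11* alone lay above the median of all genes. Its level was 4.10 (WBGene00003530, chromosome X, 6713577 to 6716357), 6.83-fold above *nas-9*, the next of the family at 1.33. *nas-37*, which encodes a metalloprotease needed to shed the cuticle at the moult, had 1.24. *nas-3* had 0.28, *nas-5* -0.04 and *nas-7*, which has a part in the making of the pharynx, -0.38. *nas-32*, *nas-22* and *nas-31* followed with -0.46, -0.78 and -1.12. The lowest of all 36 genes was *nas-39*, an astacin of the tolloid kind, which cuts matrix and signalling proteins in other animals. It had an average of -0.57 log2 cpm, a level of -2.37 at percentile 1.16, and it is the member with the most exons in its longest transcript, 22.

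*nas-39* was also the 1 member that was missing from a table. The tables of wild type at both temperatures and of both genotypes at 25 °C list the same 12749 genes. The table of both genotypes at 15 °C lists 12443 genes, and the 306 genes missing from it had averages of -2.28 to -0.05. The average of *nas-22*, -0.44, falls in the same range, and that of *nas-31*, -0.01, just above it, and both were listed in all 3 tables.

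Of the carboxypeptidases, *pcp-1* (4.10) and *pcp-5* (3.50) lay above the median of all genes, and these averages differed 1.51-fold. *pcp-3* had 0.77, *pcp-4* -1.25 and *pcp-2* -1.46. These 3 have the longer transcripts of the family, with exon lengths of 3363, 3204 and 3556 bases, against 1773 and 1710 bases for *pcp-1* and *pcp-5*. The median of the family therefore depended on the length scaling: without it the median of the *pcp-* genes was 2.52 log2 cpm in place of 0.77. Its place among the families stayed the same, between the unscaled medians of the *nas-* (0.31) and the *asp-* genes (6.71).

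The annotation holds 70 genes whose symbol starts with 1 of the 6 prefixes, and 34 of them are not listed in the tables. The share not listed was 27 of 37 for *nas-*, 6 of 17 for *asp-*, 1 of 8 for *cpr-*, and 0 of 8 for *cpl-*, *cpz-* and *pcp-* genes together. Separate entries that share the symbol *nas-2* are each counted. The share of all annotated genes that is not listed was not counted, so whether these shares are unusual cannot be said. By these newer symbols the listed genes are not quite the 36 members, since *asp-10* is left out as *hrg-7* and *F57F5.1* is counted as *cpr-9*, which gives 11 listed *asp-* and 7 listed *cpr-* genes. Among those not listed were *nas-6*, *nas-36* and *nas-38*, known for parts in the pharynx, in moulting and in sleep. The authors left out genes with a cpm under 1, so that a gene that is not listed may have been below that limit or absent from the annotation they counted on. That limit was not one on the average used here, since *nas-22*, *nas-31* and *nas-39* are listed with averages of 0.735, 0.995 and 0.674 cpm. The medians above are those of the listed genes alone.

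The genes were unevenly placed in the genome, with most of them on chromosome V. Of the 36 genes, 22 (61.1%) lie on chromosome V, which holds 2418 of the 12712 genes with an annotated place. Chromosome X holds 7 of the 36 genes and 1615 of the 12712. Whether the share on chromosome X differs from that of all genes was not tested. Some of the family genes lie side by side, and 24 genes of the families, 12 of them listed, lie within 10000 bases of another in 9 groups. On chromosome V, *asp-6* (8267511 to 8268937), *asp-12* (8269210 to 8272056) and *asp-5* (8272385 to 8274044) follow each other with gaps of 272 and 328 bases. The middle gene of this row was the low one, since *asp-6* was 42.4-fold and *asp-5* 26.5-fold above *asp-12*.

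A second row on chromosome V runs from *asp-17* (19035723 to 19037322) over *asp-16* and *asp-15*, which are not listed, to *asp-1*, all on the minus strand. It joins the highest and the lowest aspartic protease gene of the tables, with a difference of 395-fold. *cpr-5* (1132598 to 1134036, minus strand) and *cpr-8* (1134602 to 1139182, plus strand) point away from each other across 565 bases, and *cpr-5* was 34.6-fold higher. On chromosome IV, *pcp-3* (9155148 to 9159019) and *pcp-2* (9160588 to 9165127) lie on the same strand, 1568 bases apart, and *pcp-3* was 4.72-fold higher. The astacin rows *nas-16* to *nas-19* and *nas-20* to *nas-22* on chromosome V hold 7 genes, of which *nas-22* alone is listed. In the 4 rows with more than 1 listed gene, the highest and lowest listed genes were thus 4.72-fold to 395-fold apart. The levels of *asp-5* and *asp-6* lay 0.67 from each other across *asp-12*. Whether neighbours differ more or less than genes that lie far from each other was not tested. How much reads of similar neighbours were shared between them in the counting was not tested.

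**Figure D1:**
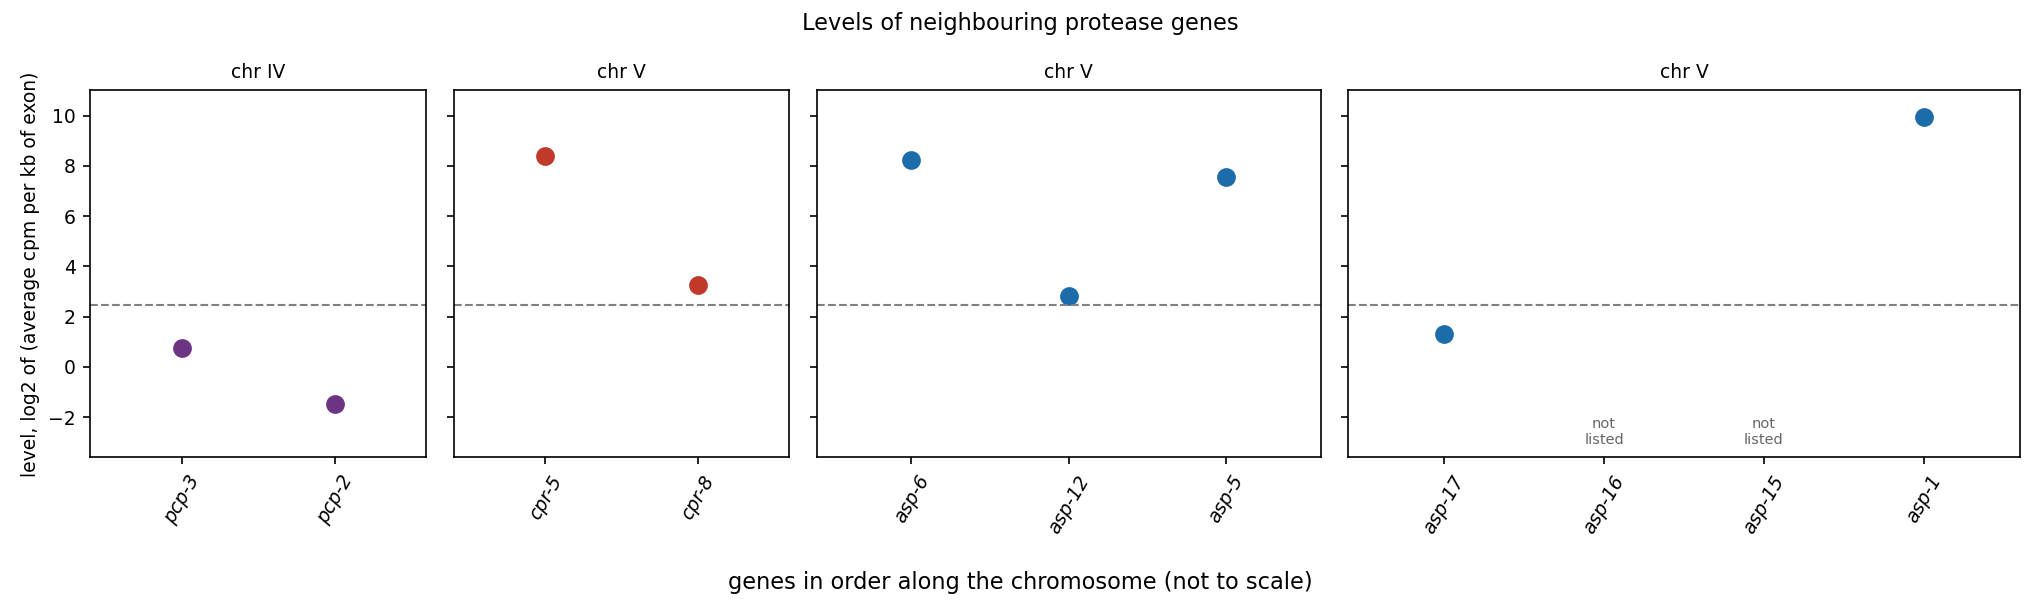
Levels of protease genes that lie within 10000 bases of each other, for the 4 groups with more than 1 listed gene. The y axis is the authors' average log2 cpm per kb of exon. Genes stand in their order along the chromosome (x axis, not to scale). Each point is 1 average over all libraries, without error bars; the dashed line is the median of all genes (2.47). *asp-12* is low between *asp-6* and *asp-5*, and *asp-1* is high beside *asp-17* and the genes not listed.

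Of the 36 genes, 12 overlap another annotated gene. For *asp-2*, *asp-4*, *asp-10*, *cpz-2*, *nas-7*, *nas-11* and *nas-37* it is a protein-coding gene on the opposite strand. The sources read here do not say whether the counting used strand, so reads of these overlaps may be shared. *nas-22* and *nas-39* overlap a protein-coding gene on their own strand. None of *asp-1*, *asp-3*, *asp-6*, *cpl-1*, *cpr-1*, *cpr-5* and *cpr-6* overlaps another gene. Overlaps were counted for the 36 genes only, so whether they are more common here than among all genes was not tested.

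Marker genes were read for the tissues that whole adult worms hold. Yolk protein genes had levels of 6.23 to 9.01 (6 of 6 listed), sperm genes of 7.27 to 7.84 (5 of 6) and oocyte and embryo genes of 5.07 to 7.79 (6 of 6). Intestine markers ranged from 0.42 to 7.17 (7 of 8), with *ges-1* at 2.55 and *act-5* at 7.17. Hypodermis markers ranged from 0.59 to 13.55 (4 of 4), muscle markers from 1.40 to 4.82 (3 of 3), neuron markers from 0.15 to 7.31 (3 of 3) and pharynx markers from -0.78 to -0.71 (2 of 3). Markers of each of these tissues were thus listed. The tissue of origin of each protease mRNA was not measured, so that whether these proteases are intestinal or secreted cannot be checked with these values. The *mdt-15* gene itself had a level of -1.89 as an average over both genotypes, which is no check of the mutant labels.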

How the data were processed

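Paired-end reads were mapped by the authors on ce11 (HISAT2 2.0.5) and passed to StringTie 1.3.3 and Ballgown 2.0.0. The authors then compared groups with limma 3.24.15 and edgeR 3.10.5, leaving out genes with a cpm under 1. The read counter is not given in the sources read here. The deposited tables hold, per gene, the authors' average log2 cpm, which was used, and 5 columns of the authors' own comparisons (log2 fold change, t, p, adjusted p and B), which were not used. No test between groups was therefore made. Without values per library, no error, depth or interval can be given.

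Levels are the deposited average minus log2 of the exon length in kb, where exons of all transcripts of a gene were merged. Places and lengths are from the WBcel235 annotation of Ensembl (release 115), which has the coordinates of ce11. Of 12749 identifiers, 12712 matched, and the 36 members had the same chromosome in both. The length step was tested on simulated data with known answers. Members and gene lists were chosen with earlier results of these data known. Every member of a family of at most 6, the 4 highest and 3 lowest of larger families, and genes of known roles were to be named. The other members and *F57F5.1* were named after their values were seen. Alternatives were the coding length, the longest transcript, no length scaling, filters on low averages, protein-coding genes and the other tables. Protein and genome sequences were not used here. Tools were pandas 2.3.3 and numpy 2.4.6 in Python 3.11.15, with matplotlib 3.10.9 for plots and scipy 1.17.1 for rank correlation.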

Additional observations from a re-analysis of the deposited data

How the results depend on the processing

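Since no spread between libraries is known, a median or level was counted as moved when it shifted by 1.5-fold or more, and a count when it changed by more than 1.5 times. Without length scaling the median of the *pcp-* genes moved from 0.77 to 2.52, and the other 5 families and the count of members above the median of all genes did not move. With averages of at least 1 alone, the medians of *nas-* and *pcp-* moved to 1.33 and 3.50, each over 3 genes, because the filter removes their low genes. With the coding length (29 named genes, 6 families and the count), the longest transcript, averages of at least 0, protein-coding genes for the median, or the other tables, no value moved. The count of members above the median, 21 of 36, was 20 against the median of genes with averages of at least 0 and 18 against that of genes with averages of at least 1. The count with the longest transcript, and against genes with averages of at least 1, was added after seeing the data. The alternative without near-identical copies was not run, since protein sequences were not used here. No paired analysis was possible because the columns used carry no replicate number. The absence of values per library and of depth limits every order given: neighbours in it may not differ.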

Other observations

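Some genes outside the 6 prefixes belong beside them. *F57F5.1*, named *cpr-9* in the annotation, had a level of 8.94, which lies between *cpr-6* and *cpr-1*. This gene was chosen after its value was seen. Among 13 other protease genes looked up by name (*try-*, *ctsa-*, *tpp-*, *dpf-*), levels ranged from -2.37 for *tpp-2* to 4.91 for *try-1*, with a median of 2.27, and 6 lay above the median of all genes. The serine carboxypeptidase genes *ctsa-1* and *ctsa-2*, which encode cathepsin A-like enzymes, had 3.60 and 3.20. None reached the median of the *asp-* genes.

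Across the 36 protease genes, genes with more exons in the longest transcript had lower averages (Spearman's rho -0.49 for the average log2 cpm before length scaling). Over the 12712 genes the same rho was -0.13. With the level per kb, the measure used elsewhere, rho was -0.51 for the 36 genes and -0.42 for all genes. On that measure the trend was thus found in all genes as well. This relation was not among the planned results. Genes are not independent replicates, and genes of 1 family share their structure, so these values are a description.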
